A study of Homo sapiens with 8 samples.

Results

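KRT8, KRT18, KRT7, KRT19 and CDH1 are the keratin and E-cadherin genes by which luminal breast epithelium is usually recognised, and their surroundings were examined for binding of the progesterone receptor (PR) in T47D-MTVL cells. Members were the PR sites overlapping 4 windows on the genome build hg19, each made of a gene with 50 kb on either side. KRT8 and KRT18 shared a window on chromosome 12 from 53241000 to 53397000, and KRT7 had one on the same chromosome from 52577000 to 52693000. The KRT19 window ran on chromosome 17 from 39630000 to 39735000, and the CDH1 window on chromosome 16 from 68721000 to 68920000. When sites of the 5 PR lists that overlapped by 1 bp or more were merged, these 576 kb held 39 of 43784 merged sites, of which 18 lay in the KRT19 window, 9 in the KRT8 and KRT18 window, 6 in the KRT7 window and 6 in the CDH1 window.

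Keratins form the intermediate filaments of epithelial cells by pairing a type I with a type II chain. KRT8 (type II) and KRT18 (type I) are the usual pair of simple and luminal epithelium, KRT7 is a type II keratin of glandular ducts, and KRT19 is a type I keratin of luminal cells that lacks most of the tail domain. CDH1 encodes E-cadherin, the calcium-dependent adhesion protein of adherens junctions. PR is a steroid receptor that binds DNA after a progestin has activated it. Monomethylation of histone H3 at lysine 4 (H3K4me1) marks enhancers and the surroundings of promoters, trimethylation of the same residue (H3K4me3) marks active promoters, and RNA polymerase II is the enzyme that transcribes protein-coding genes.

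T47D-MTVL cells are human breast cancer cells of luminal type with a reporter behind the mouse mammary tumour virus promoter. PR was precipitated before hormone (0 min) and after 5, 30, 60 or 360 min with 10 nM R5020, a synthetic progestin, and H3K4me1, H3K4me3 and RNA polymerase II were precipitated from unstimulated cells. All cells had been kept in charcoal-treated serum and then without serum. The authors' deposited table adds reads from digestion with micrococcal nuclease (MNase), an enzyme that cuts between nucleosomes, in R5020-treated and unstimulated cells at each PR site of the 60 min list. Each of the 8 groups was 1 library of 1 cell line. Differences between times or conditions therefore rest on single libraries and carry no p-value. The lists give no peak height and no read depth, so absence from a list does not show that a region was unbound. Expression was not measured, and the luminal identity of the cells was not checked here.

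The first question was where PR lay at these genes before hormone and how this changed over the time course. None of the 4 windows held a PR site in unstimulated cells. The 4 windows together held 27 sites at 5 min, 23 at 30 min, 20 at 60 min and 22 at 360 min. At 60 min this was 3.47 sites per 100 kb, against 0.805 over all listed chromosomes. The KRT19 window held 14 of these 20 sites. H3K4me1 regions covered 68.1% of the 4 windows, against 7.64% of all listed chromosomes, so these densities were not compared at equal marking. The 0 min list was short everywhere, with 844 sites or 0.0278 per 100 kb, and only 1.92% of all merged sites were listed at 0 min, so a count of 0 in 576 kb is near that background.

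**Figure D1:**
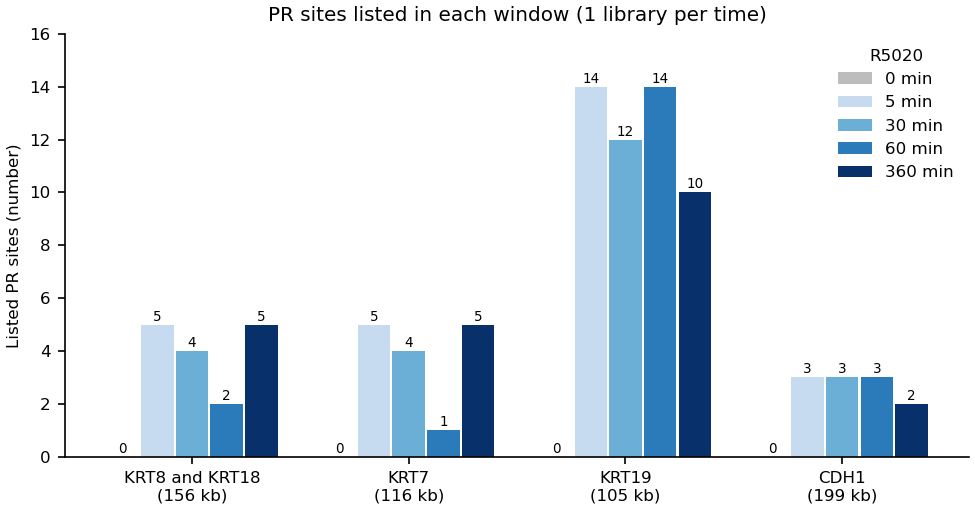
Number of PR sites listed in each window (vertical axis) for the KRT8 and KRT18, KRT7, KRT19 and CDH1 windows, with 1 bar per time of R5020 and 1 library per time. The KRT19 window stands out with 14, 12, 14 and 10 sites at 5, 30, 60 and 360 min, and every window has 0 at 0 min.

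KRT19 had more sites than any other of the 4 windows at each time with hormone. Its window, the shortest of the 4 at 105 kb, held 14 sites at 5 min, 12 at 30 min, 14 at 60 min and 10 at 360 min. When all listed chromosomes were divided into bins of 105 kb, 0.104% of them (30 of 28918) held 14 or more sites at 60 min. The other windows were sparser. The KRT8 and KRT18 window held 5, 4, 2 and 5 sites at 5, 30, 60 and 360 min, the KRT7 window 5, 4, 1 and 5, and the CDH1 window 3, 3, 3 and 2. As many sites as these at 60 min were found in 28.0% of bins of the width of the KRT8 and KRT18 window, in 41.2% for KRT7 and in 22.2% for CDH1, so counts like those of these 3 windows at 60 min were common. At the other times the keratin windows stood higher. The KRT8 and KRT18 counts at 5, 30 and 360 min were reached by 6.14%, 11.4% and 6.58% of bins, and the KRT7 counts by 3.83%, 7.5% and 4.0%. For CDH1 these shares were 20.2%, 23.4% and 33.6%.

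Of the 39 merged sites, 11 (28.2%) were listed at all 4 times with hormone, against 23.0% of merged sites in all lists. KRT19 accounted for 8 of the 11, and the KRT8 and KRT18, KRT7 and CDH1 windows for 1 each. A further 16 of the 39 were listed at only 1 time with hormone, 10 of them at 5 min alone. Over all lists 41.6% of merged sites were listed at 1 time with hormone and 16.8% at 5 min alone. The members' share at 1 time, 41.0%, was near that background. Seen from the 60 min list, 0 of 20 member sites were also listed at 0 min (exact upper limit 16.8%), against 0.364% of all 60 min sites. At 5 min 13 of the 20 were listed too (65.0%, against 53.7% of all 60 min sites), at 30 min 16 (80.0%, against 77.6%) and at 360 min 15 (75%, against 70.6%). Each share of the whole list lay within the exact 95% interval of the members' share. These intervals cover counting error only and are no test, since 14 of the 20 sites share 1 H3K4me1 region at KRT19 and are not independent.

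**Figure D2:**
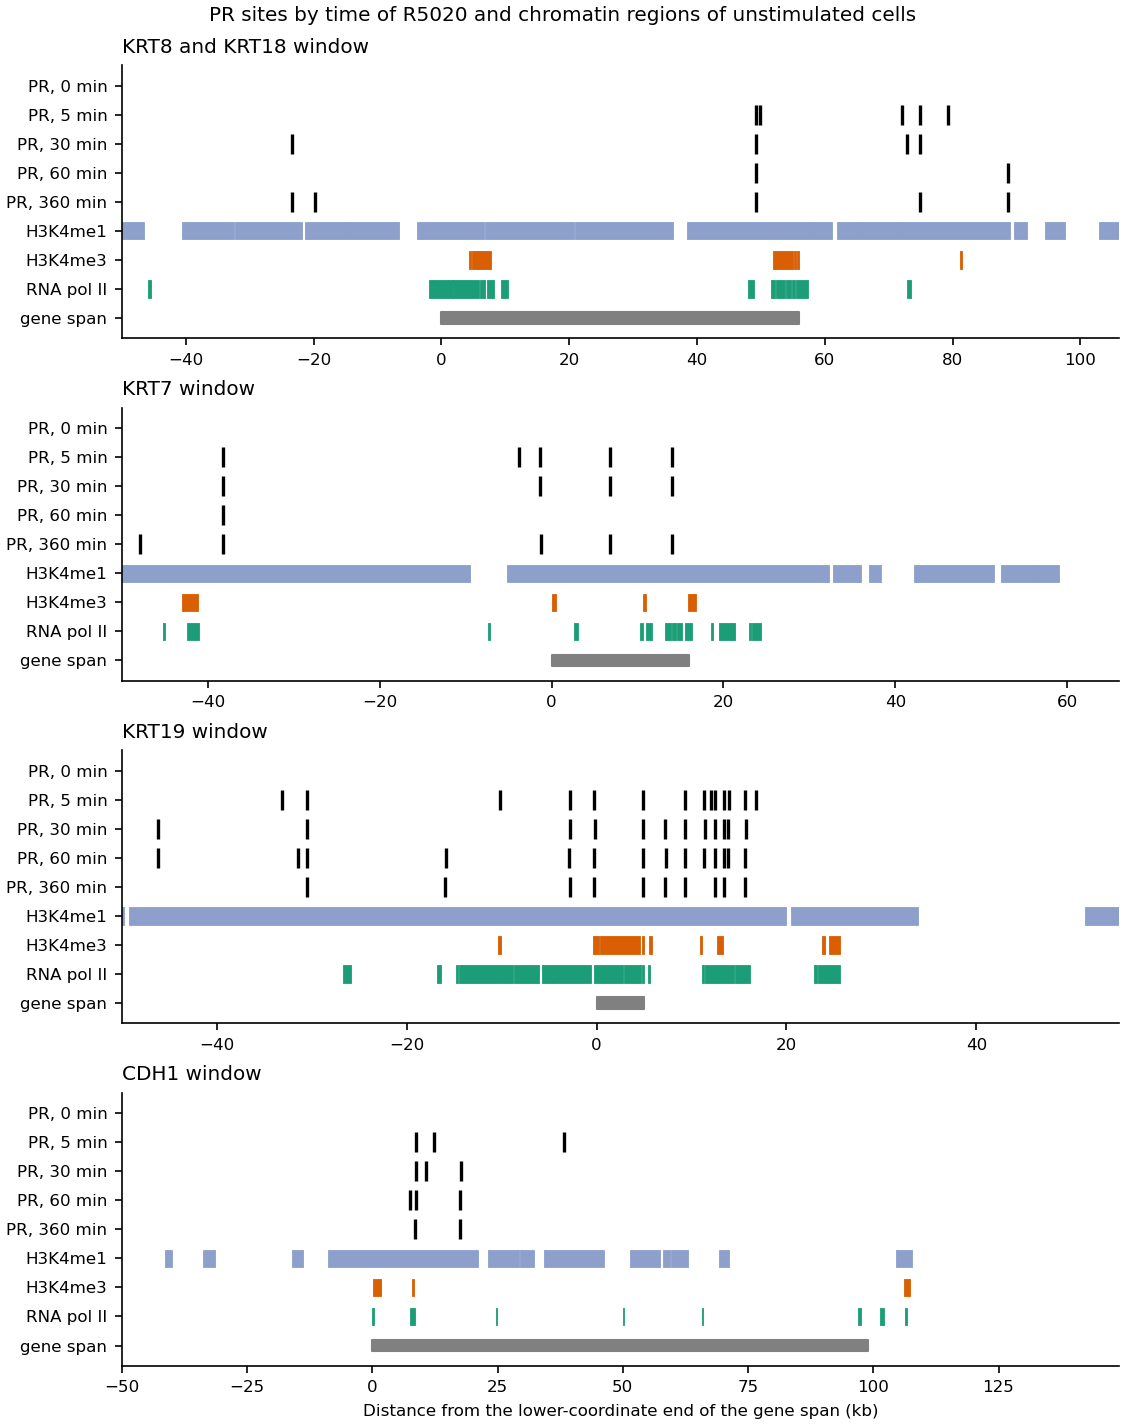
Positions of PR sites at 0, 5, 30, 60 and 360 min of R5020 (black ticks, drawn at site centres) and of H3K4me1, H3K4me3 and RNA polymerase II regions in unstimulated cells (coloured bars) in each window, along the distance from the lower-coordinate end of the gene span in kb. The grey bar is the gene span given by the window less 50 kb on either side. The sites of the KRT19 window crowd within 16.6 kb of the lower end on the upper-coordinate side, and the KRT7 gene has ticks at 5, 30 and 360 min but none at 60 min.

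All 39 merged sites, listed at any time, overlapped H3K4me1 regions of unstimulated cells (100.0%, exact 95% interval 91.0 to 100.0%, counting error only), against 42.1% of all merged sites. Of the 20 sites in the 60 min list, 20 overlapped H3K4me1 regions (exact 95% interval 83.2 to 100.0%), against 48.2% of that list, and the authors' deposited table marks the same 20. This has to be read beside the windows themselves, which were densely marked before hormone. H3K4me1 regions covered 86.1% of the KRT8 and KRT18 window, 85.2% of the KRT7 window, 82.3% of the KRT19 window and 36.6% of the CDH1 window, against 7.64% of all listed chromosomes. The CDH1 window was thus the least covered of the 4, and its 6 sites were all in H3K4me1 regions too.

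KRT19 held all member sites that lay in H3K4me3 regions and most of those in RNA polymerase II regions. Of its 18 merged sites, 5 overlapped H3K4me3 regions (27.8%, 9.69 to 53.5%) and 10 overlapped RNA polymerase II regions (55.6%, 30.8 to 78.5%). In the other 3 windows none of 21 merged sites overlapped H3K4me3 (exact upper limit 16.1%) and 3 of 21 overlapped RNA polymerase II (14.3%, 3.05 to 36.3%). Over all merged sites these shares were 4.1% for H3K4me3 and 6.99% for RNA polymerase II. In the 60 min list 4 of the 20 member sites overlapped H3K4me3, against 5.12% of all sites of that list, and 9 of 20 overlapped RNA polymerase II, against 8.92%. RNA polymerase II regions covered 26.7% of the KRT19 window, against 11.3% of the KRT8 and KRT18 window, 8.43% of the KRT7 window and 1.93% of the CDH1 window. H3K4me3 regions covered 7.93%, 4.78%, 3.12% and 1.51% of these windows in the same order. Over all listed chromosomes the coverage was 0.641% for RNA polymerase II and 0.549% for H3K4me3. The difference between the windows was not tested, since sites of 1 locus share their surroundings.

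The KRT19 sites lay in a wide stretch of marked chromatin. One H3K4me1 region of 69.2 kb, on chromosome 17 from 39630719 to 39699928, contained every hormone-time PR site of the window, that is 14, 12, 14 and 10 sites at 5, 30, 60 and 360 min. Counting itself, it was 1 of 9 among 73263 H3K4me1 regions of that width or more, and 1 of 4 that held as many sites of the 60 min list. Over the gene itself lay an H3K4me3 region of 4257 bp (39680337 to 39684594), and 3 of the 22593 H3K4me3 regions, itself among them, reached that width.

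PR flanked this H3K4me3 block and was not listed inside it. At the upper-coordinate end, where KRT19 starts because it is read from the reverse strand, a site from 39684682 to 39685059 in the 60 min list spanned the end of the gene span and overlapped a short H3K4me3 region (39684760 to 39685047) and RNA polymerase II. It was listed at all 4 times with hormone, with widths of 251, 317, 377 and 256 bp at 5, 30, 60 and 360 min, and its centre moved by at most 72.5 bp between times. At the lower-coordinate end, where the gene finishes, the site from 39679599 to 39679948 was also listed at all 4 times, with widths of 238, 321, 349 and 343 bp. The site from 39676947 to 39677321, which lies 2.68 kb beyond that end on the side of KRT15 (a type I keratin gene next to KRT19 in RefSeq), likewise appeared in the 4 lists after hormone and lay in an RNA polymerase II region of 4084 bp.

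The densest group lay before the KRT19 start. Between 2.12 and 10.9 kb from the upper end of the gene span, on the side of the long noncoding RNA gene LINC00974, the 60 min list held 7 sites, the 30 min list 7 and the 360 min list 5. At 5 min 8 sites lay between 4.13 and 11.9 kb. RNA polymerase II regions held 6, 5, 5 and 3 of these sites at 5, 30, 60 and 360 min. The RNA polymerase II regions here stretched from 39691141 to 39696197 with short breaks, and beside or among them were 2 small H3K4me3 regions (257 and 628 bp), each overlapped by 1 PR site. Which transcript these regions belong to was not determined, because no hg19 annotation was used.

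Within this group, 4 merged sites were listed at all 4 times with hormone. They started 4.12, 7.28, 8.26 and 10.5 kb from the upper end of the gene span. The site 2.07 kb from it was absent at 5 min and listed at the other 3 times. The sites 6.01 and 8.66 kb away were absent at 360 min alone. The first of these was the widest site of the 4 windows at 60 min, at 567 bp, wider than 95.1% of the 60 min list. It was 466 bp wide at 5 min and 315 bp at 30 min. Sites 6.94 and 11.6 kb away were listed at 5 min alone, with widths of 184 and 250 bp.

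**Figure D3:**
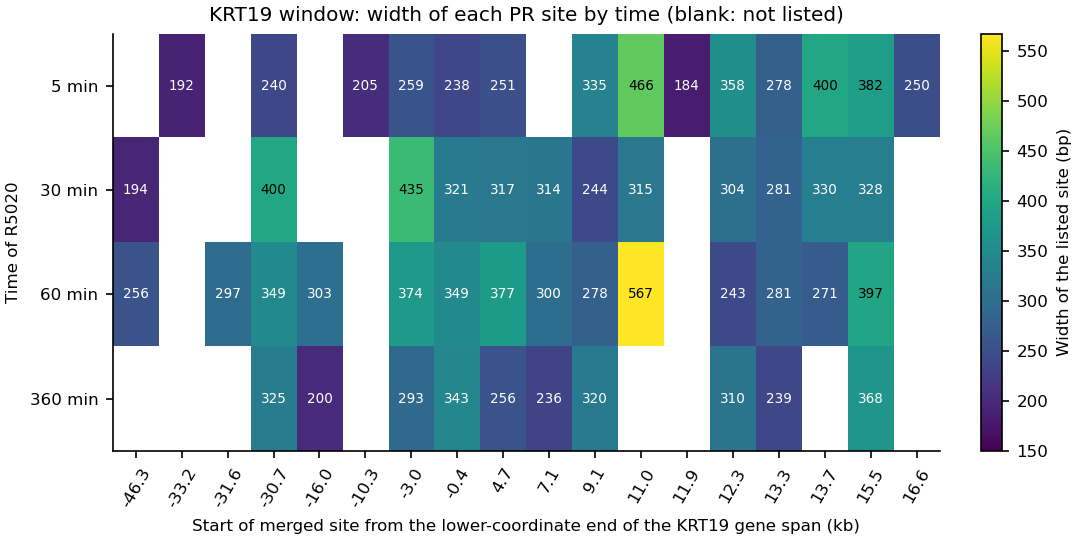
Width in bp (colour and printed number) of each of the 18 merged PR sites of the KRT19 window (horizontal axis, start of the site in kb from the lower-coordinate end of the gene span) at 5, 30, 60 and 360 min of R5020 (vertical axis), with blanks where a site was not listed. Filled columns are the 8 sites listed at all 4 times, and the widest value is 567 bp at 60 min.

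Farther down on the KRT15 side, sites became fewer and their listing less regular. A site 30.3 kb from the gene span (39649329 to 39649678 at 60 min) was listed at all 4 times, with widths of 240, 400, 349 and 325 bp. The sites 46.1 kb away (30 and 60 min), 15.7 kb away (60 and 360 min) and 31.3 kb away (60 min alone) overlapped neither H3K4me3 nor RNA polymerase II regions. The sites 33.0 and 10.1 kb away were listed at 5 min alone. The second of these overlapped both an H3K4me3 and an RNA polymerase II region.

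The KRT8 and KRT18 pair had wide H3K4me3 and RNA polymerase II regions that held no PR site. KRT8 and KRT18 are neighbours read from opposite strands, and RefSeq annotates an overlap between them. H3K4me3 formed 2 blocks, the first of 4 regions between 53295315 and 53298805 near the lower end of the gene span and the second with a region of 3201 bp (53342823 to 53346024) near the upper end, where KRT18 lies. Only 0.102% of H3K4me3 regions were as wide as this one. An RNA polymerase II region of 3956 bp (53292889 to 53296845) lay at the lower block. At none of the 5 times did these regions overlap a PR site.

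A site near the KRT18 block was the only one of this window listed at all 4 times. It lay inside the gene span, 2.31 kb from the H3K4me3 region and 0.081 kb from an RNA polymerase II region, and its 60 min coordinates were 53340153 to 53340385. Its widths of 450, 256, 232 and 230 bp at 5, 30, 60 and 360 min were highest at the earliest time. At 60 min it was narrower than most sites, since 11.1% of the list was narrower still. A neighbouring site, closer to the H3K4me3 region at 1.85 kb, was listed at 5 min alone.

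The remaining sites of the window lay outside the gene pair. On the upper side, towards EIF4B (a translation initiation factor gene), sites from 53363000 to 53363273 and 23.2 kb away were listed at 5 min alone. The site 16.7 kb away, listed at 30 min alone, overlapped an RNA polymerase II region of 642 bp, the only such overlap in this window. The site 18.7 kb away was listed at each time with hormone except 60 min, with widths of 283, 196 and 211 bp. A site 32.6 kb away, listed at 60 and 360 min with widths of 239 and 326 bp, was the other member of the 60 min list. On the lower side a site 23.2 kb away was listed at 30 and 360 min and one 19.6 kb away at 360 min alone.

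PR sites close to KRT7 were listed at every time with hormone except 60 min. An H3K4me1 region of 37.5 kb (52621861 to 52659324), which covers the gene, held 4 PR sites at 5 min, 3 at 30 min, 0 at 60 min and 3 at 360 min. A site 1.17 kb before the start of KRT7 had widths of 172, 230 and 212 bp at 5, 30 and 360 min. Inside the gene, the site starting 6.6 kb from the start had widths of 276, 195 and 292 bp, and the site starting 13.8 kb from it had 294, 289 and 184 bp at the same times. The site at 13.8 kb overlapped RNA polymerase II regions, and none of the 3 overlapped the H3K4me3 region at the KRT7 start (52626997 to 52627570), from which the first was 1.17 kb away.

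Such a gap at 60 min alone was uncommon over all lists. Together with 1 site of the KRT8 and KRT18 window, 4 of the 39 member sites (10.3%) showed it, against 1.23% of all merged sites. Put another way, 4 of the 15 member sites listed at 5, 30 and 360 min were not listed at 60 min, whereas 5.08% of all merged sites listed at those 3 times were missing at 60 min. Of these 4 sites, 3 lay in the KRT7 window. The pattern was picked out after seeing the data, so these shares are description only. Widths of the 4 sites at the times that list them lay between 172 and 294 bp, and the shares of all merged sites were not matched for width. The 60 min list was of similar length to the others, with 24436 sites. Its sites were the widest, with a median of 313 bp, against 269, 285 and 265 bp at 5, 30 and 360 min. Whether these 4 sites lost PR at 60 min or fell below the threshold of that list cannot be told apart.

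The only site of the KRT7 window in the 60 min list lay 38.1 kb below the gene (52588678 to 52588875) in an H3K4me1 region of 54.2 kb, 1 of 28 among the 73263 regions with that width or more. It was listed at all 4 times, with widths of 274, 243, 197 and 231 bp, and only 2.5% of the 60 min list was narrower. The merged site lay 2.74 kb from an H3K4me3 region of 1404 bp and 2.61 kb from an RNA polymerase II region of 1416 bp, both also far from KRT7. A site 3.64 kb below the gene was listed at 5 min alone and one 47.8 kb below it at 360 min alone.

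CDH1 had all its sites inside the gene. The H3K4me3 region over its start (68771223 to 68772645, 1422 bp) and the RNA polymerase II regions there overlapped no listed PR site at any time. The 6 merged sites started between 7.32 and 38.2 kb from the gene start, and 5 of them lay in an H3K4me1 region of 28.6 kb (68763575 to 68792150). The site at 8.47 kb (68779473 to 68779811 at 60 min) was listed at all 4 times, with widths of 281, 271, 338 and 200 bp. It lay 0.132 kb from a second, small H3K4me3 region of 430 bp and 0.038 kb from an RNA polymerase II region.

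The other CDH1 sites were listed at fewer times. The site at 17.3 kb was listed at 30, 60 and 360 min, with widths of 318, 368 and 252 bp. The sites at 12.0 kb (431 bp wide) and 38.2 kb (286 bp) were listed at 5 min alone, that at 10.5 kb at 30 min alone and that at 7.32 kb at 60 min alone. The last one overlapped the RNA polymerase II region next to the site at 8.47 kb.

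The second comparison asked how MNase reads at the member sites differed between R5020-treated and unstimulated cells. Values exist for the 20 member sites of the 60 min list, so the KRT7 sites absent from it have none. All 20 sites had fewer reads with R5020 than without it in the authors' deposited table, as did 78.0% of all sites. This direction was thus the common one over all sites, and 14 of the 20 shared the KRT19 window. Over the 20 sites the authors' deposited table had a median of 75 normalized reads with R5020 and 131 in unstimulated cells, and the median log2 of R5020 over unstimulated was -0.81. Across all 24436 sites the authors' deposited table gave medians of 75 reads with R5020 and 97 reads in unstimulated cells, and a median log2 of -0.37. That shift of all sites depends on how the libraries were scaled, a step not given in the sources used here, and it is the level against which single loci are read. A value below 1/1.5 of the unstimulated one was found at 13 of the 20 sites (65.0%, exact 95% interval 40.8 to 84.6%), against 33.6% of all sites in the authors' deposited table. Relative to the median of all sites in the authors' deposited table, the members' median log2 was -0.44 and 9 of the 20 were past 1.5-fold lower, against 14.7% of all sites. No member had a value more than 1.5 times higher with R5020 in the authors' deposited table, against 2.57% of all sites.

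**Figure D4:**
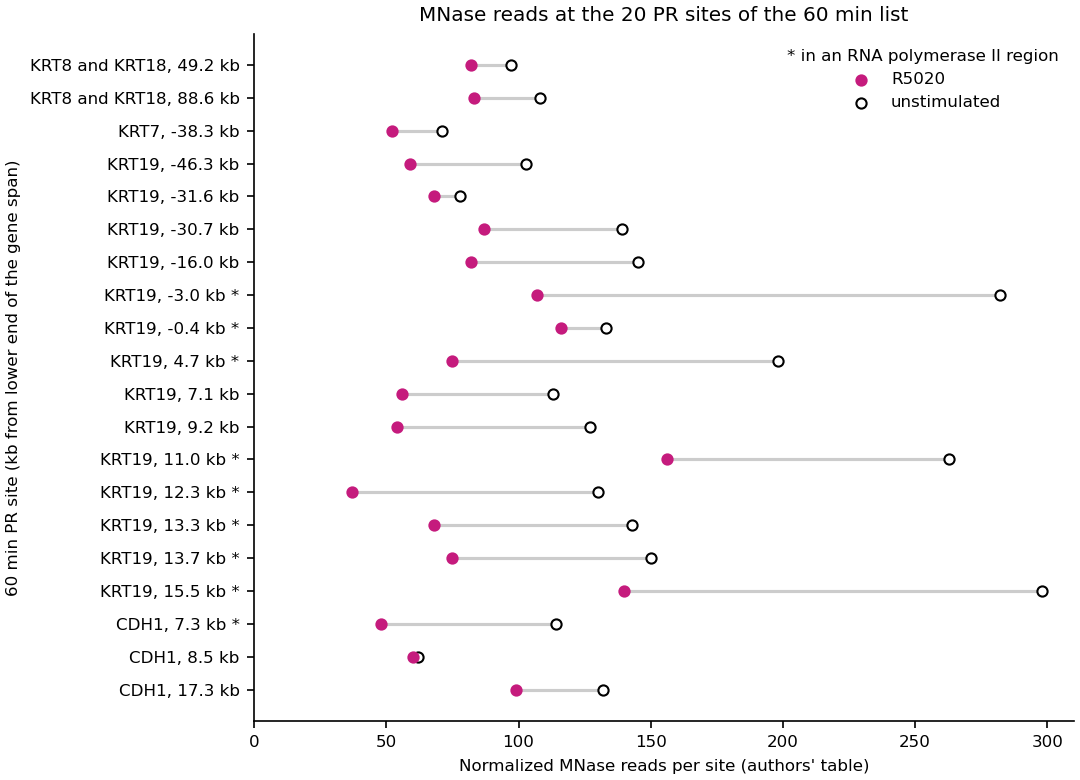
Normalized MNase reads from the authors' deposited table (horizontal axis) at the 20 member sites of the 60 min list (rows, named by window and start in kb from the lower-coordinate end of the gene span), with R5020 as filled and unstimulated cells as open points, and asterisks for sites in RNA polymerase II regions. Every filled point lies left of its open point, with the longest gaps at the KRT19 sites starting 3.05 kb below and 15.5 kb above that end.

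KRT19 sites accounted for 12 of the 13 sites past the 1.5-fold threshold. This was 85.7% of the 14 KRT19 sites, against 33.6% of all sites in the authors' deposited table. On chromosome 17 the share was 48.8%, and at the 65 sites within 1 Mb of the KRT19 window it was 53.8%. Over its 14 sites the authors' deposited table gave a lowest value of 37, a median of 75 and a highest of 156 reads with R5020, and a lowest of 78, a median of 141 and a highest of 298 reads in unstimulated cells. The median log2 of R5020 over unstimulated was -1.01, with values between -1.81 and -0.20. The lowest ratio belonged to the site 7.33 kb before the KRT19 start (39692331 to 39692574), for which the authors' deposited table gave 37 reads with R5020 and 130 in unstimulated cells. Of all 60 min sites, 1.46% had a lower log2 value than this one.

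At the KRT19 start the authors' deposited table gave 75 reads with R5020 and 198 in unstimulated cells, a log2 of -1.40. For the site at the other end of the gene the authors' deposited table gave 116 reads with R5020 and 133 in unstimulated cells. The log2 of this site was -0.20. Sites at both ends overlapped H3K4me3 and RNA polymerase II regions, and the 2 ends differed in MNase change. For the site 2.68 kb beyond the gene end the authors' deposited table gave 107 reads with R5020 and 282 in unstimulated cells, again a log2 of -1.40.

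Before the start of KRT19, all 7 sites of the 60 min list were past the threshold, against 33.6% of all sites. Of the 7, 5 lay in RNA polymerase II regions, where 78.9% of all 60 min sites were past the threshold. The 7 sites had a median log2 of -1.07 and values between -1.81 and -0.75. Their reads in the authors' deposited table ran from 37 to 156 with R5020 and from 113 to 298 in unstimulated cells. The widest site stood in the authors' deposited table with 156 reads with R5020 and 263 in unstimulated cells, and the outermost one with 140 with R5020 and 298 in unstimulated cells. On the KRT15 side, where 1 of 5 sites lay in an RNA polymerase II region, 4 of the 5 were past the threshold. The exception, 31.3 kb away and listed at 60 min alone, stood in the authors' deposited table with 68 reads with R5020 and 78 in unstimulated cells.

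In the other 3 windows 1 of 6 sites was past the threshold (16.7%, exact interval 0.421 to 64.1%). Their median log2 was -0.40, near the value of all sites. The interval includes the 33.6% of all sites, so this count does not set these windows apart from the background. RNA polymerase II regions held 1 of these 6 sites but 8 of the 14 KRT19 sites. Of all 60 min sites in such regions, 78.9% were past the threshold. The difference from KRT19 was not tested. For the KRT8 and KRT18 site listed at all 4 times the authors' deposited table gave 82 reads with R5020 and 97 in unstimulated cells, and for the site 32.6 kb away 83 with R5020 and 108 in unstimulated cells. For the site of the KRT7 window the authors' deposited table gave 52 reads with R5020 and 71 in unstimulated cells. The log2 values of these 3 sites, -0.24, -0.38 and -0.45, lay between the quartiles of all sites in the authors' deposited table, -0.73 and -0.05.

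The 3 CDH1 sites differed from each other. For the site at 7.32 kb, which overlapped RNA polymerase II, the authors' deposited table gave 48 reads with R5020 and 114 in unstimulated cells, a log2 of -1.25. For its neighbour at 8.47 kb, listed at all 4 times, the authors' deposited table gave 60 reads with R5020 and 62 in unstimulated cells, a log2 of -0.05. It was the smallest change among the 20 members. The site at 17.3 kb stood in the authors' deposited table with 99 reads with R5020 and 132 in unstimulated cells, a log2 of -0.42.

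RNA polymerase II regions, listed in unstimulated cells only, were set beside the MNase values. Among sites of the authors' deposited table in RNA polymerase II regions, 8 of 9 members were past the 1.5-fold threshold, against 78.9% of all such sites, and the members' share was near that background. The 8 KRT19 sites in these regions had a median log2 of -1.08, against -1.02 at the 2171 such sites outside the windows. Members in H3K4me1 but not RNA polymerase II regions were past the threshold at 5 of 11 sites, against 43.4% of all such sites. All 5 were in the KRT19 window, where 6 sites of this class had a median log2 of -0.81, against -0.38 at the 5 of the other 3 windows and -0.51 at the 9847 outside all windows. Within the KRT19 window 7 of 8 sites inside and 5 of 6 sites outside RNA polymerase II regions were past the threshold in the authors' deposited table. The difference between these sets was not tested.

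**Figure D5:**
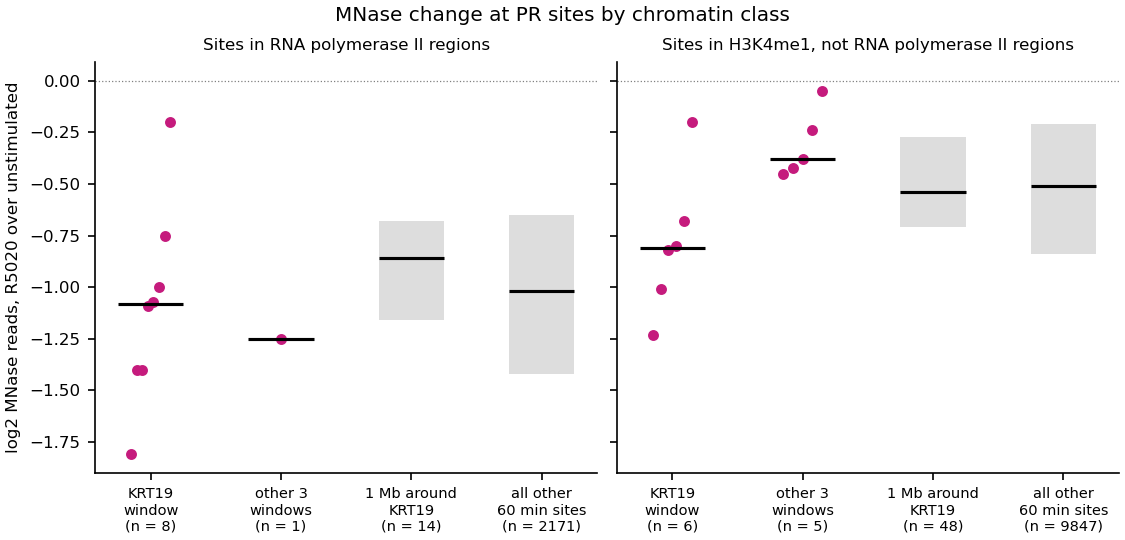
Log2 of MNase reads, R5020 over unstimulated, from the authors' deposited table (vertical axis) at member sites (points, with the median as a line) and at other 60 min sites (grey box from the lower to the upper quartile, median as a line), split by RNA polymerase II regions (left panel) and H3K4me1 without RNA polymerase II regions (right panel). The KRT19 median of -1.08 in the left panel is close to the -1.02 of sites outside the windows, and in the right panel it is -0.81 against -0.51.

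Chromosome 17 as a whole also had lower values than the genome. The median log2 was -0.57 at its 1099 sites in the authors' deposited table and -0.61 at the 65 sites within 1 Mb of the KRT19 window, against -1.01 at the 14 KRT19 sites. Per 100 bp of site, the authors' deposited table gave the KRT19 sites medians of 24.6 reads with R5020 and 47.1 in unstimulated cells, and the 65 neighbouring sites 29.1 with R5020 and 43.9 in unstimulated cells. Over all sites these medians were 23.1 with R5020 and 30.3 in unstimulated cells. KRT19 and its neighbourhood thus shared an unstimulated read density above that of all sites, but were not alone in this. The unstimulated median was 43.5 at the 2 sites of the KRT8 and KRT18 window, 39.6 on chromosome 17 and 38.7 on chromosome 12. Chromosome 12 had a median log2 of -0.28 and chromosome 16 of -0.56 in the authors' deposited table.

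The sites on either side of the windows' edges were as follows, and counts with wider or narrower windows differed. With 100 kb on either side of the genes the 60 min list gave 35 sites in place of 20, and KRT7 had 8 in place of 1. Just outside the KRT19 window, 2.55 kb beyond its upper edge, lay a site listed at 0 min alone (39737547 to 39737701), and 5.08 kb beyond its lower edge a site listed at 30 and 60 min for which the authors' deposited table gave 126 reads with R5020 and 180 in unstimulated cells. The outermost member on that side, 3.66 kb inside the edge, stood in the authors' deposited table with 59 reads with R5020 and 103 in unstimulated cells. A 60 min site lay 6.95 kb outside the KRT7 window, within the same 54.2 kb H3K4me1 region as the KRT7 member of that list. For it the authors' deposited table gave 45 reads with R5020 and 89 in unstimulated cells. A site 14.8 kb above that window had 110 reads with R5020 and 187 in unstimulated cells. Sites 22.3 kb below and 46.4 kb above the KRT8 and KRT18 window had 87 and 41 with R5020, against 195 and 98 in unstimulated cells. These outside sites of the KRT7 and the KRT8 and KRT18 windows were past 1.5-fold lower, against 33.6% of all sites. No member inside those windows was. CDH1 was isolated, with the next PR sites 138 kb below its window (listed at 0 min alone) and 87.5 kb above it (listed at 5 min alone).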

How the data were processed

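The authors deposited 1 list per sample of PR sites or chromatin regions, as start and end coordinates without peak score or height; the build is hg19, per the submitters' processing notes. The aligner, the peak caller with its thresholds, any input and the depth: not given in the sources used here. Another file deposited by the authors gives, per its file headers, a normalized number of MNase reads at each 60 min site. These whole numbers were handled as a score, not as raw reads. Its ratio (fold, unstimulated over R5020) is the authors' own. The log2 values here run the other way, R5020 over unstimulated, without a pseudocount, over the 24433 sites with R5020 reads above 0. The MNase libraries are not among the 8 samples.

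Sites were members when they overlapped a window by 1 bp or more. Lists were merged where sites overlapped by 1 bp or more. Gene spans are the windows less 50 kb on either side, rounded to 1 kb. Gene directions are textbook knowledge, and neighbouring genes come from RefSeq (GRCh38.p14), used for names and order only. Shares carry exact (Clopper-Pearson) 95% intervals that cover counting error only. With 1 library per group a site was called past 1.5-fold. Bins were as wide as each window and ran from the first base to the last base listed on each chromosome. Sites listed at 0 min, at all 4 times with hormone or in H3K4me3 or RNA polymerase II regions, the widest and the most and least changed sites, and those nearest each gene start were described singly. Members and lists were chosen with earlier results of these data known. Overlap code was tested on simulated data against a direct search. Alternatives covered the flank, overlap rules, site width, chromatin width, read minimum, pseudocount, centring and each window left out. Scripts ran under Python 3.11.15 with pandas 2.3.3, NumPy 2.4.6, Matplotlib 3.10.9 and SciPy 1.17.1.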

Additional observations from a re-analysis of the deposited data

How the results depend on the processing

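Across 16 results, 95 of 126 alternative values stayed within 1.5 times the reported count or within its interval, 31 moved, and none changed sign. Leaving out the KRT19 window and keeping the wider 50% of each PR list moved 10 results each. Without the KRT19 window PR sites numbered 13, 11, 6 and 12 at 5, 30, 60 and 360 min, merged sites 21 and sites listed at all 4 times 3, the H3K4me3 share was 0.0% and the RNA polymerase II share 16.7%, the median log2 MNase value was -0.40, and 1 site was past 1.5-fold. With only the wider 50% of each PR list the counts were 17, 11, 8 and 9, with 25 merged sites, 1 of them at all 4 times, 5 past the threshold, and 0, 0 and 6 sites at 60 min in the KRT8 and KRT18, KRT7 and KRT19 windows. With 100 kb on either side there was 1 site at 0 min, 36 at 30 min, 35 at 60 min (5 for KRT8 and KRT18, 8 for KRT7), 59 merged sites and 24 past the threshold. With 25 kb, KRT8 and KRT18 had 1 and KRT7 had 0 sites at 60 min. A 2-fold threshold left 8 sites. With the wider 50% of chromatin regions the H3K4me3 share was 0.0%. Without the 60 min list, 15 sites were listed at the other 3 times with hormone, a setting chosen after seeing the data. Centring on the median of all sites gave a median log2 of -0.44 and 9 sites past the threshold, in place of -0.81 and 13. The H3K4me3 share, reported from 4 of 20 sites, was 10.0% by site midpoint and 40.0% within 1 kb, and the RNA polymerase II share, reported from 9 of 20, was 40.0% and 60.0% by the same rules. These values lay within the wide exact intervals. With reciprocal overlap of 50% the counts of merged sites and of sites listed at all 4 times were again 39 and 11. No paired analysis was possible because each group holds 1 sample. Depth is unknown, so short lists and narrow sites limit every count.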
